A study of Mus musculus with 12 samples.

Results

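The hypoxia response and glycolysis genes described here are 32 genes out of 23150 in the expression table. They were chosen by name, with earlier results of these data known. They encode 6 proteins of oxygen sensing, 3 transporters of glucose and lactate, 9 enzymes of upper glycolysis, 6 enzymes of lower glycolysis, 3 enzymes that set glycolytic flux and 5 further products of genes known to be induced by hypoxia. Their mRNA was measured by bulk RNA-seq in wild-type mice at 8 h after human chorionic gonadotropin (hCG), given to immature females to set off ovulation. In each mouse, 1 ovary had been injected with recombinant Sema3E (2 µg in 10 µL of buffered saline with albumin) and the other with the same amount of immunoglobulin G (IgG). The 2 samples taken from an ovary were its granulosa cells (GCs), freed by puncturing the follicles, and what then remained of it, called ovarian stromal tissue (OST). There were thus 4 groups of 3 libraries: OST and GCs of Sema3E ovaries, and OST and GCs of IgG ovaries. Each replicate came from a single ovary, and nothing in the labels or methods links replicate numbers to individual mice. All 4 groups share the hormone treatment and an injection into the ovary, and none was left without an injection.

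When oxygen is low, the hypoxia-inducible factors HIF-1α (Hif1a) and HIF-2α (Epas1) escape degradation, pair with ARNT and switch on genes of glucose uptake, glycolysis and blood vessel growth. When oxygen is ample, prolyl hydroxylases of the EGLN family mark the alpha subunits, and the VHL protein targets the marked subunits for destruction. In the ovary, GCs lie in a follicle compartment without blood vessels until ovulation, and they turn glucose into pyruvate and lactate, of which the pyruvate feeds the mouse oocyte.

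HIF dimers bind a core of 5 bases, ACGTG or GCGTG, so the promoter windows of the members were searched for these letters and their reverse complements CACGT and CACGC, from 250 bases before to 50 bases after the start of transcription. In the table of RefSeq promoter windows used here (GRCm38.p6), 29 of the 32 members were matched, and Epas1, Slc2a3 and Ndrg1 are not shown. Of these 29 genes, 26 (89.7%) held at least 1 core in a window, against 46.7% of all 27025 genes in the table, and 19 (65.5%) held ACGTG or CACGT, against 21.8%. The letters CACGTG hold the core on both strands and were counted on each. Counted by window, 34 of 42 member windows (80.95%) held a core, against 43.77% of all 32851 windows. The members were chosen as hypoxia response and glycolysis genes, so these shares are a description and not a test. A match describes the letters only. The 5 windows below belong to Ldha, which held 7 matches, to Slc16a3 and Tpi1, whose OST levels did not overlap between Sema3E and IgG, to Egln3, which had the smallest p of the members between treatments in GCs, and to Adm, which differed most between OST and GCs in Sema3E ovaries. Cores are in capitals, each sequence runs 5′ to 3′ on the strand of its gene, and the Tpi1 window held no match. In GRCm38.p6 they lie at chr7:46845554-46845853 (Ldha, plus strand), chr11:120948817-120949116 (Slc16a3, plus), chr6:124814109-124814408 (Tpi1, minus), chr12:54203825-54204124 (Egln3, minus) and chr7:110627407-110627706 (Adm, plus).
Ldha: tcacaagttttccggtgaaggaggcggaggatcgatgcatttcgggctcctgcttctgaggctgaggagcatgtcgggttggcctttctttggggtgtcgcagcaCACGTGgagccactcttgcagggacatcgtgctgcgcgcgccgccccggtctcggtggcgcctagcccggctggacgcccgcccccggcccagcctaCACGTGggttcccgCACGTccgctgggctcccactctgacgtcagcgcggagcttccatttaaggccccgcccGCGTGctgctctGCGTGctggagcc
Slc16a3: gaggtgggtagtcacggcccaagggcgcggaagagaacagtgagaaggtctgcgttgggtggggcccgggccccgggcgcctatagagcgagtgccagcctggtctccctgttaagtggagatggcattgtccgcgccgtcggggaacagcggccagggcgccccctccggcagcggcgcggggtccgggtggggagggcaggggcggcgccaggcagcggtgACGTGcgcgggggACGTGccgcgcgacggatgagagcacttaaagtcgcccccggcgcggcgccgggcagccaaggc
Tpi1: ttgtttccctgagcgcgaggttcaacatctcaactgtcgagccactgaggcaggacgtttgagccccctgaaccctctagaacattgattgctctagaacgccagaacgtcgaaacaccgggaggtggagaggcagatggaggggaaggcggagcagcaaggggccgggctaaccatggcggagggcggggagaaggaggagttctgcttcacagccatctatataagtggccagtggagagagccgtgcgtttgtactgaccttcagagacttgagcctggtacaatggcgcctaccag
Egln3: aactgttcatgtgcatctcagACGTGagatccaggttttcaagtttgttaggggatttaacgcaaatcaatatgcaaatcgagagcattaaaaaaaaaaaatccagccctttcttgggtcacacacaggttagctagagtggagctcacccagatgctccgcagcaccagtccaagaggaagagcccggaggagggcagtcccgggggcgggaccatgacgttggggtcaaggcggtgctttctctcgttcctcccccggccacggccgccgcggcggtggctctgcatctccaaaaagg
Adm: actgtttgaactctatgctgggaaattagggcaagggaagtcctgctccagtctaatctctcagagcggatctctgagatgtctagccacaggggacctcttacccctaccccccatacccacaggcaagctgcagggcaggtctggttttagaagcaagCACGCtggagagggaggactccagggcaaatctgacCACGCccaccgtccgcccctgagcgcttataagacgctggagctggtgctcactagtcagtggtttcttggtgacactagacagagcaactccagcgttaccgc

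Values are TPM (transcripts scaled to a fixed total), which also divide the reads of a gene by its length, so that levels can be compared between genes. TPM keep no record of depth, and the depth of each library is therefore unknown. Each library had 13335 to 14891 genes over 1 TPM. Markers were checked against the labelled tissues: all 11 endothelial and all 8 smooth muscle and pericyte markers were called higher in OST than in GCs within both treatments, and 12 of 12 theca and interstitial markers in Sema3E ovaries and 9 of 12 in IgG ovaries. The granulosa markers did not separate the tissues as clearly. In Sema3E ovaries 7 of 12 were called lower and 1 higher in OST than in GCs, and in IgG ovaries 1 was called lower (Inhba, −1.73) and 1 higher (Amh, 3.14), so in IgG ovaries granulosa transcripts in OST were not shown to be fewer. Globin genes held 4.54% to 19.6% of the TPM of GC libraries and 0.261% to 0.637% of those of OST, and these genes mark red blood cells. OST IgG replicate 3 stood apart from the other 5 OST libraries. Its 10 oocyte markers summed to 1425 TPM, against 304 to 492 TPM in OST of Sema3E ovaries and 449 and 516 TPM in the other OST of IgG ovaries. Its 12 granulosa markers summed to 15491 TPM, against 6524 to 8652 TPM, and its 12 theca and interstitial markers to 1868 TPM, against 5814 to 7840 TPM. GC IgG replicate 1 also stood apart, with 10 macrophage and monocyte markers at a sum of 2666 TPM, against 163 to 606 TPM in the other 5 GC libraries. Main values that moved with either library are given without it as well.

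Over the 12 libraries, 8 members averaged above 100 TPM, all of them glycolytic enzymes, led by Aldoa at 1199.8 TPM and Tpi1 at 718 TPM. A further 15 members averaged 10 to 100 TPM, and 9 were under 10 TPM, down to Ankrd37 at 1.37 TPM and Slc2a3 at 0.761 TPM. All 32 passed the filter of more than 1 TPM in at least 1 library compared, in every comparison. The 15 glycolytic enzyme members together held 0.419% to 0.5005% of all TPM in OST of Sema3E ovaries, 0.266% to 0.413% in OST of IgG ovaries, 0.367% to 0.451% in GCs of Sema3E ovaries and 0.389% to 0.471% in GCs of IgG ovaries. The lowest of these 12 values was that of OST IgG replicate 3, and the other 11 lay between 0.367% and 0.5005%.

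**Figure D1:**
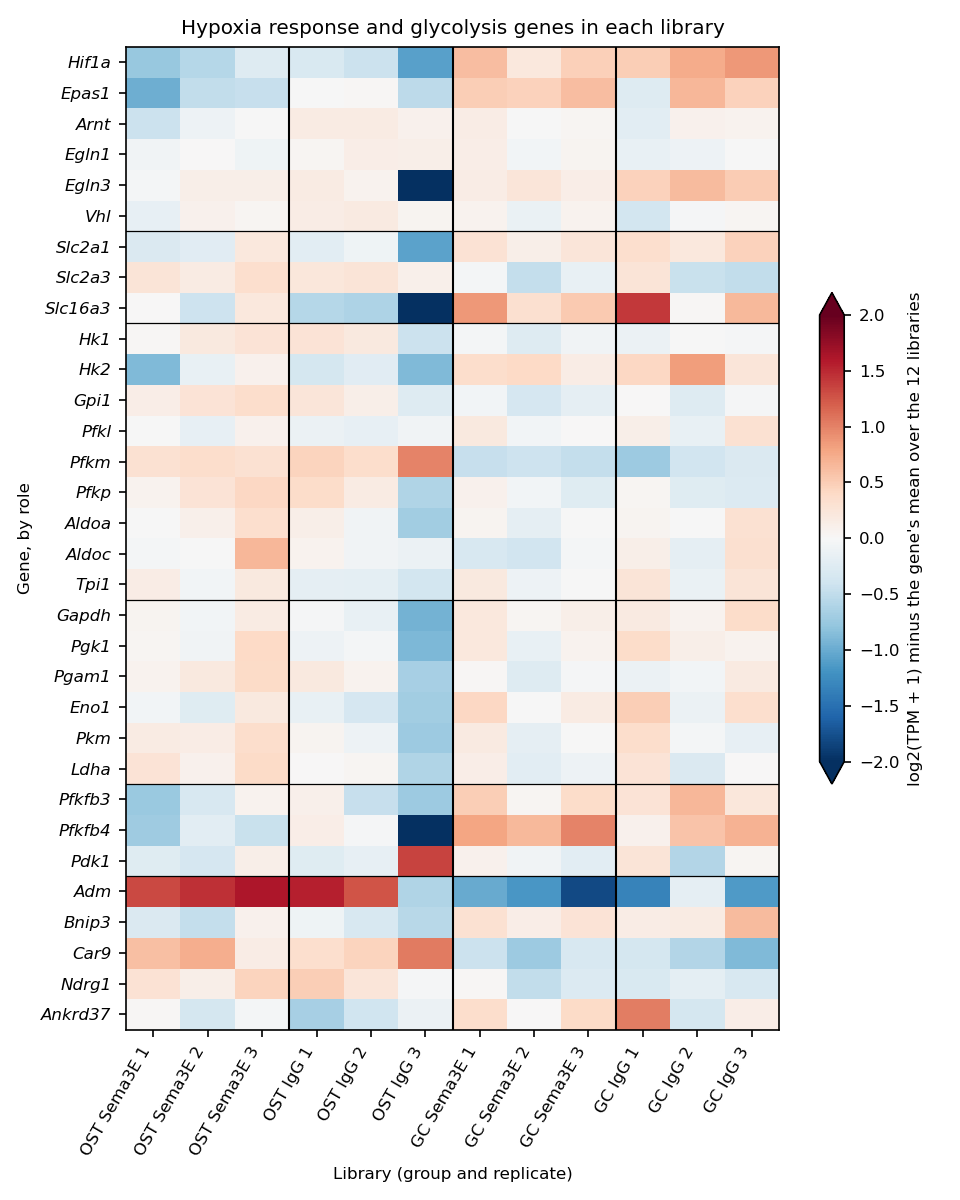
Each cell is the log2(TPM + 1) of 1 member (rows, grouped by role) in 1 library (columns), minus the mean of that member over the 12 libraries. OST IgG replicate 3 has the darkest blue for most of the glycolytic enzymes and for Egln3, Slc16a3 and Pfkfb4, and Adm is red in the other 5 OST libraries and blue in most GC libraries.

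The first question was whether Sema3E changed these genes in OST. No member passed an adjusted p under 0.05 in limma, which called 0% of the 16273 genes tested in this comparison. At an unadjusted p under 0.05, 1 of 32 members was called, Tpi1, which was higher, against 14.9% of all genes (273 higher and 2152 lower). Without OST IgG replicate 3 there were 5 such members (Epas1, Pfkfb4, Tpi1, Slc16a3 and Pkm), against 20.1% of all genes. The median log2 difference of the members, Sema3E minus IgG, was 0.23, against −0.18 for all genes tested, and 25 of 32 were above 0, including all 6 enzymes of lower glycolysis and 8 of 9 of upper glycolysis. Without OST IgG replicate 3 the medians were 0.06 and −0.16, and 18 of 32 were above 0. Of the 32 members, 11 changed sign when that library was left out, among them Hif1a, Egln3 and Pfkfb4. Under median-ratio scaling, which brought the median of all genes to −0.02, the members' median was 0.38 and 28 were above 0. At an unadjusted p under 0.05 that scaling gave 6 of 32 members, against 9.93% of all genes, and 0 after adjustment.

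Groups did not overlap for 7 of 32 members in OST, 4 higher and 3 lower in Sema3E ovaries. They did not overlap for 33.5% of all genes tested, 597 higher and 4858 lower. Slc16a3, Tpi1, Pkm and Ldha were higher in every Sema3E library than in any IgG library, and Arnt, Egln1 and Pfkm were lower, though Egln1 turned to 0.04 under median-ratio scaling. The same question was asked in GCs. There 0 members passed an adjusted p under 0.05 in limma, where 0.0661% of 15128 genes did. Egln3 was the 1 member at an unadjusted p under 0.05 (5.11% of all genes), and under median-ratio scaling there were 3 (7.62%). Egln3, which was lower, was also the 1 member whose groups did not overlap (11% of all genes, 1360 higher and 310 lower). The median log2 difference in GCs was −0.06, against 0.06 for all genes, with 11 of 32 members above 0. Without GC IgG replicate 1 the members' median was −0.04, with 11 of 31 above 0, and 9 changed sign, among them Epas1, Slc16a3, Pkm and Ldha. Over the 6 GC libraries left out in turn, the median of all genes ran from −0.02 to 0.12. The difference furthest from 0 was that of Adm, at −0.44, and at −0.67 (adjusted p = 0.546 from limma) without GC IgG replicate 1. Oocyte markers moved with the treatment in GCs. Of 9 tested, all were above 0, limma called 0 after adjustment and 6 had an unadjusted p under 0.05, and the 10 in the list summed to 361 to 396 TPM in Sema3E ovaries against 176 to 303 TPM in IgG ovaries. The 12 granulosa markers were also all above 0, with 0 called, 2 at an unadjusted p under 0.05 and sums of 11462 to 12141 TPM in Sema3E ovaries against 7343 to 14752 TPM in IgG ovaries. None of either list was at 0 in every GC library, and their part in the GC differences of the members was not tested. In bulk samples, fewer cells of a type and less RNA per cell cannot be told apart, which touches each of these differences.

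**Figure D2:**
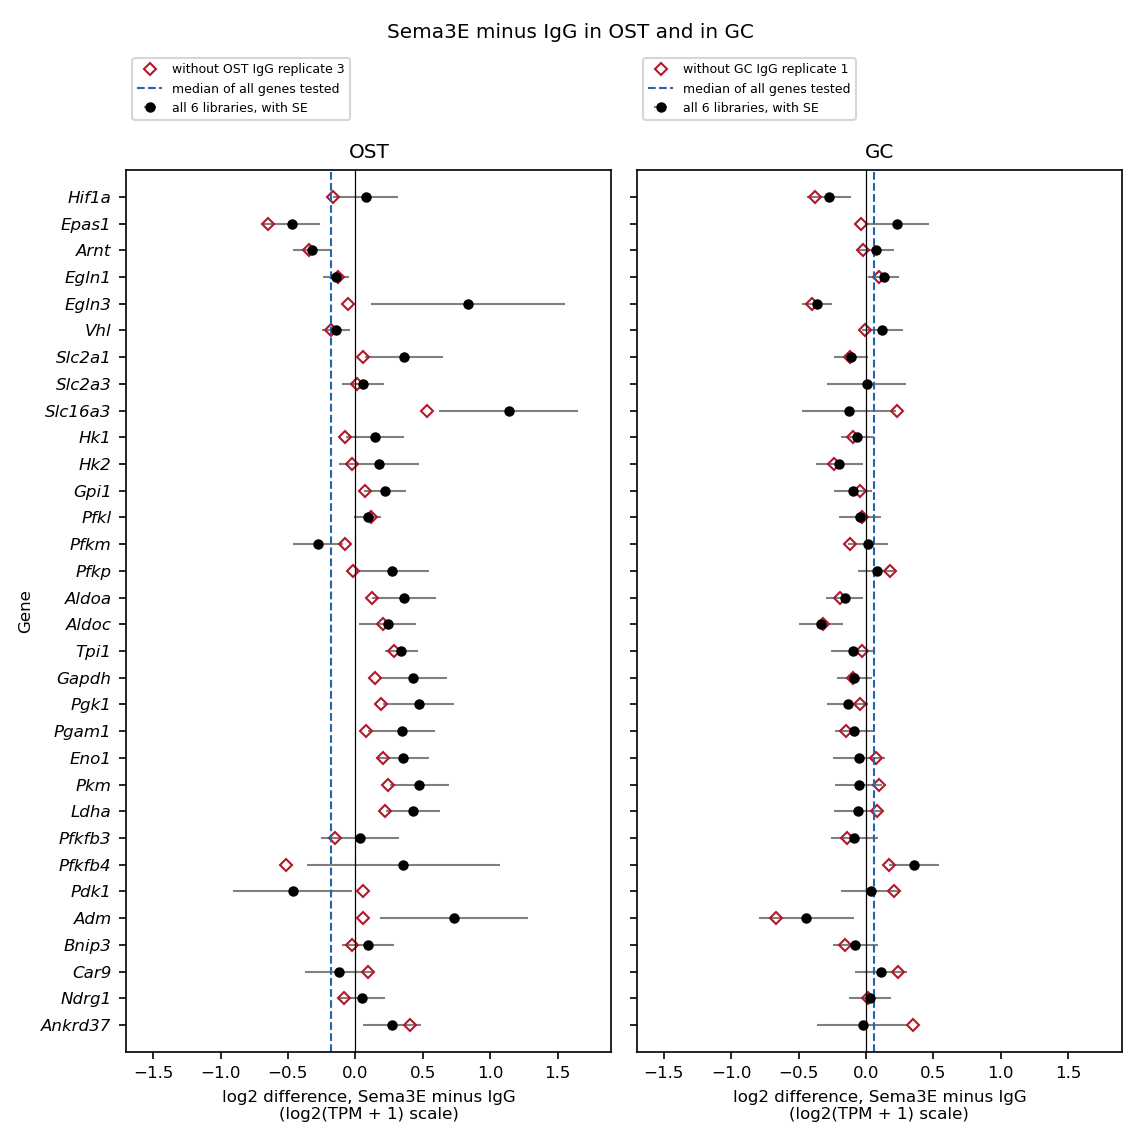
Points show the log2 difference of each member, Sema3E minus IgG, with its standard error, in OST (left) and GCs (right). Diamonds show the value without OST IgG replicate 3 or GC IgG replicate 1, and the dashed line is the median of all genes tested, −0.18 in OST and 0.06 in GCs. Slc2a3 has no diamond in GCs, where it did not pass the filter without that library. In OST most black points lie right of that line, and Egln3, Pfkfb4, Adm and Slc16a3 move furthest when the library is left out.

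Among the oxygen sensing genes, Hif1a, the oxygen-labile subunit of HIF-1, was at 48.1, 54.8 and 68.7 TPM in OST of Sema3E ovaries, against 66.2, 60.8 and 38.1 TPM in OST of IgG ovaries. In GCs it was at 126, 94.7 and 114 TPM in Sema3E ovaries, against 116, 139 and 150 TPM in IgG ovaries. The treatments overlapped in both tissues, while every GC library exceeded every OST library. In GCs the log2 difference between treatments was −0.27 (SE 0.16, adjusted p = 0.999 from limma), and −0.38 (adjusted p = 0.445) without GC IgG replicate 1. Epas1, the alpha subunit of HIF-2, which is prominent in endothelial cells, was at 23.7, 33.7 and 34.1 TPM in OST of Sema3E ovaries, against 47.3, 48.1 and 32.8 TPM in OST of IgG ovaries. IgG replicate 3 lay among the Sema3E values. The log2 difference was −0.47 (SE 0.21, adjusted p = 0.34 from limma), and −0.65 (adjusted p = 0.231) without OST IgG replicate 3.

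Arnt, the partner shared by both alpha subunits, was at 8.04, 10.3 and 11.1 TPM in OST of Sema3E ovaries, against 12.6, 12.7 and 11.9 TPM in OST of IgG ovaries. The groups did not overlap, and the log2 difference of −0.32 (SE 0.14, adjusted p = 0.336 from limma) lay below the median of all genes, −0.18. Egln3, a prolyl hydroxylase whose gene is itself induced by HIF, was at 11.5, 12.3 and 11.4 TPM in GCs of Sema3E ovaries, against 14.5, 16.5 and 15.1 TPM in GCs of IgG ovaries. Every Sema3E value was lower than every IgG value. The log2 difference was −0.36 (SE 0.11, adjusted p = 0.894 from limma), and −0.40 (adjusted p = 0.37) without GC IgG replicate 1. In OST, Egln3 was at 9.95, 11.2 and 11.3 TPM in Sema3E ovaries, against 11.7, 10.9 and 0.931 TPM in IgG ovaries. Its log2 difference in OST was 0.83 with the low library and −0.06 without it. Egln1, the main oxygen sensor of the family, stayed between 12.7 and 15.7 TPM and Vhl between 32.02 and 47.7 TPM over all 12 libraries.

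Among the transporters, Slc16a3, which encodes the lactate exporter MCT4, had the largest OST difference of the members over all 6 libraries, though Epas1, at −0.65, was further from 0 without OST IgG replicate 3. Slc16a3 was at 38.9, 28.9 and 45.0 TPM in OST of Sema3E ovaries, against 25.7, 25.0 and 6.43 TPM in OST of IgG ovaries. All 3 Sema3E values were higher than all 3 IgG values, by a log2 difference of 1.14 (SE 0.52, adjusted p = 0.341 from limma). Leaving out OST IgG replicate 3 gave a difference of 0.53 (adjusted p = 0.235). In GCs Slc16a3 was at 71.2, 48.7 and 55.9 TPM in Sema3E ovaries, against 105, 39.4 and 61.1 TPM in IgG ovaries, and its difference of −0.13 was 0.23 without GC IgG replicate 1, the library with the most macrophage transcripts, whose part in this value was not tested. Slc2a1, the glucose transporter GLUT1, was at 15.3 to 22.0 TPM in OST of Sema3E ovaries, 8.45 to 17.7 TPM in OST of IgG ovaries, 20.6 to 23.4 TPM in GCs of Sema3E ovaries and 21.9 to 26.4 TPM in GCs of IgG ovaries. Slc2a3, the high-affinity transporter GLUT3, did not exceed 1.17 TPM in any library.

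In upper glycolysis, Tpi1, which interconverts the triose phosphates, was at 785, 684 and 813 TPM in OST of Sema3E ovaries, against 625, 622 and 554 TPM in OST of IgG ovaries. Every Sema3E value was higher, by a log2 difference of 0.34 (SE 0.12, adjusted p = 0.332 from limma), and of 0.28 (adjusted p = 0.232) when OST IgG replicate 3 was left out. In GCs its values overlapped, at 819, 661 and 707 TPM in Sema3E ovaries and 853, 650.1 and 847 TPM in IgG ovaries. Aldoa, which splits fructose bisphosphate, was at 1171, 1274 and 1496 TPM in OST of Sema3E ovaries, against 1279, 1130 and 731 TPM in OST of IgG ovaries. Gpi1, Pfkl, Pfkp, Hk1, Hk2 and Aldoc also overlapped between treatments in OST, with log2 differences of 0.09 for Pfkl to 0.27 for Pfkp. Of these, Gpi1 and Pfkl were the more abundant, with Pfkl at 46.6 to 55.7 TPM in OST of Sema3E ovaries and 46.4 to 49.6 TPM in OST of IgG ovaries. Hk1, at 4.04 to 7.23 TPM over all 12 libraries, and Pfkp, at 4.63 to 10.4 TPM, were the least abundant. Aldoc had the second smallest p of the members in GCs, at 7.94, 7.50 and 9.83 TPM in Sema3E ovaries against 11.01, 8.86 and 12.8 TPM in IgG ovaries. These values overlapped, and the log2 difference was −0.33 (SE 0.16, adjusted p = 0.999 from limma).

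In lower glycolysis, all 6 enzymes had positive OST differences, from 0.34 for Pgam1 to 0.48 for Pkm, and none passed. Ldha, which makes lactate from pyruvate, was at 374, 328 and 402 TPM in OST of Sema3E ovaries, against 311, 317 and 204 TPM in OST of IgG ovaries. Pkm, which makes pyruvate, was at 365, 363 and 415 TPM in OST of Sema3E ovaries, against 338, 305 and 197 TPM in OST of IgG ovaries. For both genes the groups did not overlap. Without OST IgG replicate 3 the differences of the 6 enzymes ran from 0.08 for Pgam1 to 0.24 for Pkm, and Pkm then had an adjusted p of 0.243 from limma. Gapdh, Pgk1, Pgam1 and Eno1 overlapped between treatments in OST. Pgk1, which makes ATP from bisphosphoglycerate, was at 158 to 217 TPM in OST of Sema3E ovaries and 88.2 to 160.1 TPM in OST of IgG ovaries. Pgam1, the phosphoglycerate mutase, was at 569 to 703 TPM in OST of Sema3E ovaries and 342 to 621 TPM in OST of IgG ovaries. Eno1, the enolase of most tissues, was at 389 to 527 TPM in OST of Sema3E ovaries and 285 to 419 TPM in OST of IgG ovaries. For all 3 of these genes OST IgG replicate 3 lay below every Sema3E value. In GCs the differences of the 6 enzymes ran from −0.14 for Pgk1 to −0.05 for Eno1, all within 1 standard error of 0. Without GC IgG replicate 1, Eno1 (0.08), Pkm (0.10) and Ldha (0.08) lay above 0, and Gapdh, Pgk1 and Pgam1 stayed below 0.

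The flux regulators act on both ends of the pathway. Pfkfb3 and Pfkfb4 make fructose 2,6-bisphosphate, the activator of phosphofructokinase, and Pdk1 holds back the entry of pyruvate into the mitochondrial citric acid cycle. Pfkfb4 was at 7.98, 11.7 and 9.88 TPM in OST of Sema3E ovaries, against 15.3, 13.5 and 1.51 TPM in OST of IgG ovaries. The Sema3E values lay below 2 of the IgG values and above the other, so the log2 difference of 0.36 turned to −0.51 (adjusted p = 0.231 from limma) when OST IgG replicate 3 was left out. In GCs it was at 24.4, 22.2 and 28.5 TPM in Sema3E ovaries, against 14.7, 21.0 and 23.0 TPM in IgG ovaries. These overlapped, with a log2 difference of 0.36 (SE 0.19, adjusted p = 0.999 from limma), and of 0.17 (adjusted p = 0.615) without GC IgG replicate 1. Pdk1 was at 4.42 to 6.43 TPM in OST of Sema3E ovaries and at 4.76, 5.08 and 16.4 TPM in OST of IgG ovaries. It was thus high, not low, in OST IgG replicate 3. Bnip3, a mediator of mitophagy, Car9, a carbonic anhydrase, Ndrg1, a stress-responsive gene, and Ankrd37 overlapped between treatments in both tissues. In OST, Bnip3 was at 24.2 to 36.0 TPM in Sema3E ovaries and 22.8 to 32.1 TPM in IgG ovaries, and Pfkfb3 was at 5.08 to 9.65 TPM in Sema3E ovaries and 5.10 to 9.83 TPM in IgG ovaries. Ankrd37 did not exceed 3.58 TPM in any library. Adm also overlapped between treatments in OST, at 41.3 to 50.5 TPM in Sema3E ovaries and 10.1 to 48.5 TPM in IgG ovaries, with a log2 difference of 0.73 that was 0.06 without OST IgG replicate 3.

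OST IgG replicate 3 had the lowest value of the 6 OST libraries for 22 of 32 members (68.8%) and the highest for 3 (9.38%), whereas of the 16273 genes over 1 TPM in OST it was lowest for 25.0% and highest for 47.8%. It was lowest for all 6 enzymes of lower glycolysis, all 3 transporters and 7 of 9 enzymes of upper glycolysis. The 3 members for which it was highest were Pfkm, Pdk1 and Car9. As a ratio to the mean of the other 2 OST libraries of IgG ovaries, it was furthest down for Egln3 (0.0825), Pfkfb4 (0.105), Adm (0.231), Slc16a3 (0.254) and Pfkp (0.495), and furthest up for Pdk1 (3.34). The granulosa, oocyte and theca markers given above moved with this library, and their part in these values was not tested. Of 7 neutrophil markers tested between treatments in OST, all had a difference above 0, limma called 0 after adjustment, and 6 had an unadjusted p under 0.05, and the 8 in the list summed to 41.6 to 177 TPM in Sema3E ovaries against 1.73 to 13.7 TPM in IgG ovaries. Of 8 macrophage and monocyte markers tested, all were above 0 and 1 had an unadjusted p under 0.05, and the 10 in the list summed to 128 to 218 TPM in Sema3E ovaries against 81.3 to 123 TPM in IgG ovaries. Of 5 surface epithelium markers tested, 0 were called after adjustment and 4 had an unadjusted p under 0.05, of which 3 lay above 0, and the 6 in the list summed to 258 to 306 TPM in Sema3E ovaries against 178 to 217 TPM in IgG ovaries, without overlap. Of all genes tested between treatments in OST, 14.9% had an unadjusted p under 0.05. No marker of these 3 lists was at 0 in every OST library, and their part in the OST differences of the members was not tested.

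**Figure D3:**
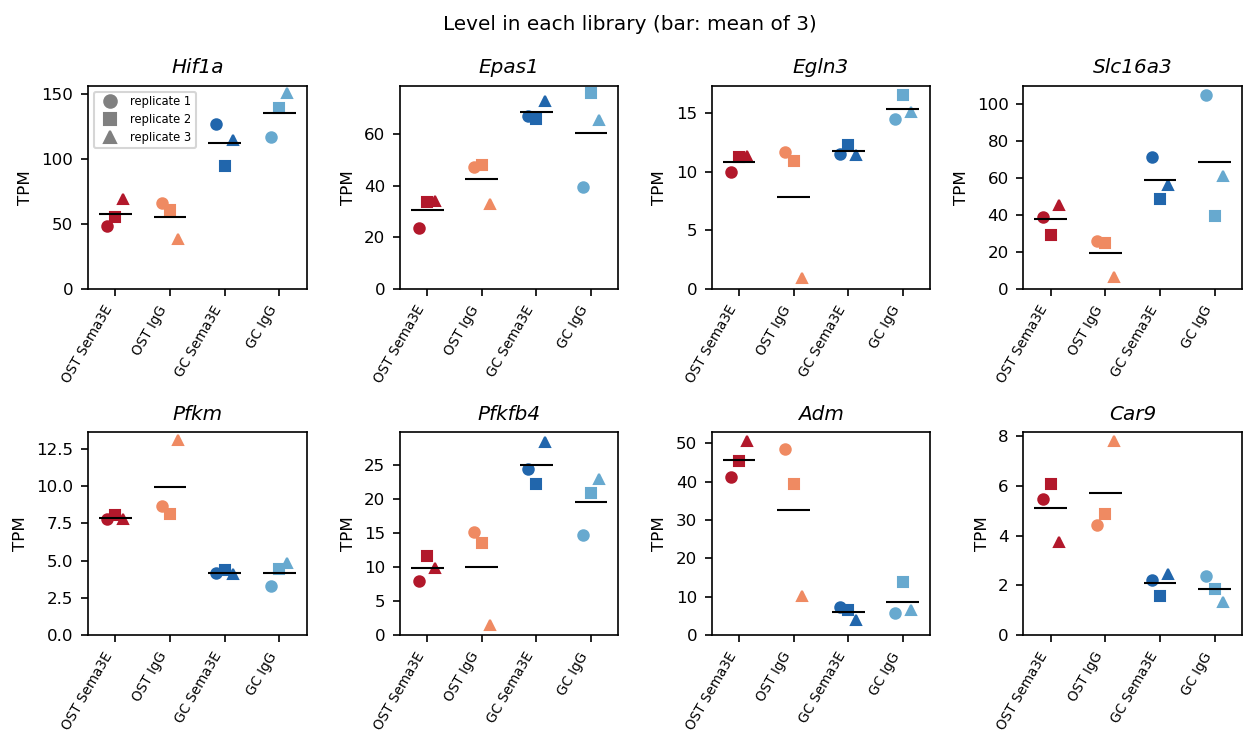
TPM of 8 members in each library (symbols give the replicate number, bars the mean of 3), on linear axes from 0. OST IgG replicate 3, the triangle of the second column, is far below the other OST points for Egln3, Slc16a3, Pfkfb4 and Adm and above them for Pfkm and Car9.

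The next question was whether the effect of Sema3E differed between OST and GCs. The test of this difference, OST effect minus GC effect over all 12 libraries, gave 0 members at an adjusted p under 0.05 in limma, where it gave 0% of 16903 genes. At an unadjusted p under 0.05 it gave 1 member, against 18.3% of all genes (239 above 0 and 2862 below). That member was Tpi1 (0.44, SE 0.20, adjusted p = 0.269 from limma), followed by Arnt (−0.39, SE 0.18, adjusted p = 0.279), Egln1 (−0.27, SE 0.13, adjusted p = 0.285) and Epas1 (−0.71, SE 0.34, adjusted p = 0.29, and −0.43 without GC IgG replicate 1). The members' median was 0.31, against −0.22 for all genes, and 0.13 against −0.15 without OST IgG replicate 3 and GC IgG replicate 1.

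The last question was how OST and GCs differed, within each treatment. In Sema3E ovaries limma called 10 of 32 members at an adjusted p under 0.05, 5 higher and 5 lower in OST. It called 45.2% of 15698 genes, 4425 higher and 2667 lower. In IgG ovaries it called 3 of 32, against 8.64% of 16627 genes. At an unadjusted p under 0.05, 17 members were called in Sema3E ovaries (53.6% of all genes) and 11 in IgG ovaries (29.7% of all genes). The libraries of OST and GCs did not overlap for 15 members in Sema3E ovaries (58.5% of all genes), 8 higher and 7 lower in OST. In IgG ovaries they did not overlap for 17 members (44.8% of all genes), 6 higher and 11 lower in OST. Of all genes without overlap, 5438 were higher and 3751 lower in OST of Sema3E ovaries, and 6615 were higher and 827 lower in OST of IgG ovaries. The median log2 difference of the members, OST minus GCs, was −0.04 in Sema3E ovaries, against 0.05 for all genes, and −0.26 in IgG ovaries, against 0.30 for all genes. In IgG ovaries the members' median was −0.10 without OST IgG replicate 3, where Pgam1, Ldha and Pdk1 changed sign. It was −0.19 without GC IgG replicate 1. With each of the 6 libraries left out in turn, the median of all genes there ran from 0.24 to 0.35. TPM are shares of a library, and globin and mitochondrial transcripts took more of GC libraries. Without them the median of all genes was −0.19 in Sema3E ovaries and 0.07 in IgG ovaries, and limma called 19 members in Sema3E ovaries, 3 higher and 16 lower (54.7% of all genes), and 2 in IgG ovaries, both lower (5.15% of all genes). Under median-ratio scaling it called 16 in Sema3E ovaries, 7 higher and 9 lower (52.5% of all genes), and 3 in IgG ovaries, all lower (5.52% of all genes).

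Adm, which encodes the vasodilator peptide adrenomedullin, had the largest tissue difference of the members in Sema3E ovaries. It was at 41.3, 45.5 and 50.5 TPM in OST and 7.34, 6.56 and 3.83 TPM in GCs of Sema3E ovaries, a log2 difference of 2.79 (SE 0.21, adjusted p = 0.000133 from limma). In IgG ovaries it was at 48.5, 39.4 and 10.1 TPM in OST and 5.65, 13.9 and 6.69 TPM in GCs. There the tissues overlapped and the difference of 1.62 did not pass (adjusted p = 0.138). It was 2.29 (adjusted p = 0.0146 from limma) without OST IgG replicate 3 and 1.39 (adjusted p = 0.307) without GC IgG replicate 1. Endothelial markers, all 11 of them, were called higher in OST as well, at sums of 445 to 531 TPM in OST and 13.4 to 24.9 TPM in GCs of Sema3E ovaries and 297 to 525 TPM in OST and 19.4 to 40.8 TPM in GCs of IgG ovaries. None was at 0 in every GC library, and their part in the level of Adm was not tested.

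Car9 and Pfkm were the members called higher in OST in both treatments. Car9 was at 5.495, 6.08 and 3.75 TPM in OST and 2.21, 1.59 and 2.45 TPM in GCs of Sema3E ovaries (log2 difference 0.98, SE 0.18, adjusted p = 0.00599 from limma). In IgG ovaries it was at 4.42, 4.88 and 7.83 TPM in OST and 2.36, 1.87 and 1.34 TPM in GCs (1.21, SE 0.25, adjusted p = 0.0347). Pfkm, the muscle isoform of phosphofructokinase, was at 7.80, 8.03 and 7.82 TPM in OST and 4.16, 4.34 and 4.09 TPM in GCs of Sema3E ovaries (0.77, SE 0.07, adjusted p = 0.000342). In IgG ovaries it was at 8.67, 8.11 and 13.1 TPM in OST and 3.27, 4.45 and 4.81 TPM in GCs (1.07, SE 0.23, adjusted p = 0.0372). Both were higher in OST under every scaling. In IgG ovaries neither passed under the 2 other scalings, with adjusted p-values of 0.0629 to 0.107.

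Hif1a was called lower in OST than in GCs in both treatments. The log2 difference was −0.96 (SE 0.16, adjusted p = 0.00367 from limma) in Sema3E ovaries and −1.31 (SE 0.24, adjusted p = 0.0231) in IgG ovaries, and the libraries of the 2 tissues did not overlap in either. Epas1 was called lower with it in Sema3E ovaries, at 23.7, 33.7 and 34.1 TPM in OST and 67.3, 66.1 and 73.2 TPM in GCs (−1.17, SE 0.15, adjusted p = 0.00115). In IgG ovaries Epas1 was at 47.3, 48.1 and 32.8 TPM in OST and 39.7, 76.2 and 65.6 TPM in GCs, which overlapped (−0.46, adjusted p = 0.301), with a difference of −0.29 without OST IgG replicate 3 and −0.73 without GC IgG replicate 1. Pfkfb4 was also called lower in OST of Sema3E ovaries (−1.27, SE 0.15, adjusted p = 0.000898), as were Slc16a3 (−0.63) and Bnip3 (−0.47), and each of these was lower in OST under every scaling. The medians of the macrophage and monocyte markers and of the neutrophil markers were also lower in OST, and their part in these differences was not tested. In IgG ovaries Slc16a3 had the largest difference of the members over all 6 libraries, −1.89, without overlap between OST and GCs, and it did not pass (adjusted p = 0.0913). Without OST IgG replicate 3 it was −1.29 (adjusted p = 0.0954), and Adm, at 2.29, was further from 0. Without GC IgG replicate 1 it was −1.54. Pfkfb4 was at −1.27 (SE 0.70) in IgG ovaries and did not pass, and its difference there was −0.40 (adjusted p = 0.281 from limma) without OST IgG replicate 3 and −1.45 without GC IgG replicate 1. Hk2, the inducible hexokinase, had the fourth smallest p in IgG ovaries, at 12.6, 13.9 and 8.41 TPM in OST and 22.3, 30.2 and 19.6 TPM in GCs (−0.99, SE 0.24, adjusted p = 0.0525).

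Gpi1, which converts glucose 6-phosphate to fructose 6-phosphate, was called higher in OST of Sema3E ovaries, at 99.7, 109.7 and 116 TPM against 87.4, 72.0 and 80.01 TPM in GCs (0.44, SE 0.10, adjusted p = 0.0106 from limma). Ndrg1 was called with it, at 6.84, 6.02 and 7.75 TPM in OST against 5.58, 3.59 and 4.32 TPM in GCs (0.53, SE 0.15, adjusted p = 0.0303). Without globin and mitochondrial genes neither passed, at 0.17 for Gpi1 and 0.31 for Ndrg1, and in IgG ovaries Gpi1 was at 0.13 in the deposited TPM and below 0 under both other scalings. Of the 15 glycolytic enzymes, only Pfkm and Gpi1 were called in either treatment on the deposited TPM.

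**Figure D4:**
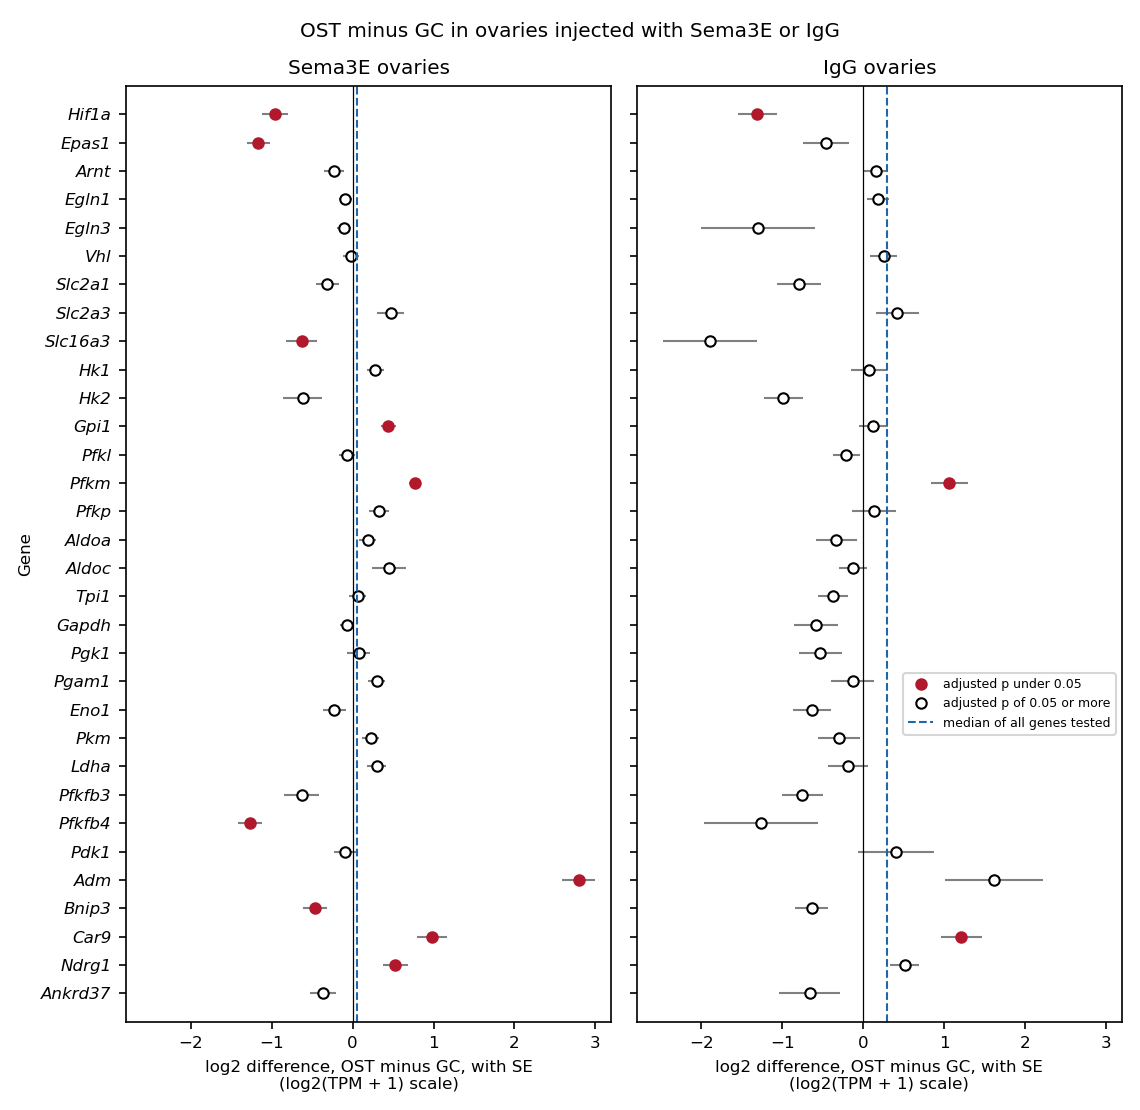
Points show the log2 difference of each member, OST minus GCs, with its standard error, in Sema3E ovaries (left) and IgG ovaries (right). Filled red points passed an adjusted p under 0.05 (10 of 32 and 3 of 32), and the dashed line is the median of all genes tested, 0.05 and 0.30.

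In IgG ovaries the number of called members moved with the libraries left out, and so did the share of all genes called. Leaving out OST IgG replicate 3 gave 5 called members (Hif1a lower and Adm, Car9, Pfkm and Ndrg1 higher in OST), against 12.1% of all genes, and leaving out both it and GC IgG replicate 1 gave 9, against 20.3%. Leaving out GC IgG replicate 1, 2 or 3 or OST IgG replicate 2 gave 0, against 3.03% to 4.3% of all genes, and leaving out OST IgG replicate 1 gave 1, against 4.02%. In Sema3E ovaries the count ran from 7 to 12 over the 6 libraries left out in turn, and the share of all genes from 33.1% to 43.5%.

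Shares among isoforms do not depend on the scaling of a library, since both parts come from the same library. Hk1, the housekeeping hexokinase, made up 29.1% to 41.0% of the summed Hk1 and Hk2 TPM in OST of Sema3E ovaries and 17.5% to 23.0% in GCs of Sema3E ovaries. In IgG ovaries it made up 32.5% to 36.4% in OST and 15.9% to 22.3% in GCs. OST libraries thus had the larger Hk1 share in both treatments, without overlap. Pfkm held 10.6% to 12.5% of phosphofructokinase TPM in OST and 5.80% to 7.03% in GCs of Sema3E ovaries, and 12.8% to 19.5% in OST and 4.83% to 7.71% in GCs of IgG ovaries. Pfkl, the liver isoform, held the most in every library, from 72.0% to 85.6%. Hif1a made up 62.0% to 67.03% of the summed Hif1a and Epas1 TPM in OST of Sema3E ovaries, against 53.7% to 58.3% in OST of IgG ovaries. In GCs the share was 58.9% to 65.3% in Sema3E ovaries, against 64.5% to 74.6% in IgG ovaries. The groups did not overlap in OST and overlapped in GCs. These shares were compared after their values were seen, and an exact permutation test of 3 against 3 cannot go below p = 0.1.

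Of the 32 members, 9 had near-identical copies in the table, at 95% identity over 80% of the shorter transcript. Gapdh was extreme, with 61 copies. Its own row, at 92.0 to 230 TPM, held only 1.63% to 2.02% of the TPM summed over it and its copies, which came to 5331 to 11597 TPM. Gm7336, a Gapdh pseudogene, was at 2547 to 6410 TPM, and Gm13394 at 1624 to 3699 TPM. The sources used here do not give how reads were divided among these rows, so the Gapdh row is uncertain as a measure of Gapdh mRNA. Summed with its copies, Gapdh had an OST difference of 0.42 between Sema3E and IgG (SE 0.27, adjusted p = 0.419 from limma), against 0.43 for its own row. The copies did not move as 1 unit in OST: Gm13394 was at 2917, 3256 and 3699 TPM in Sema3E ovaries against 2019, 2100.1 and 1624 TPM in IgG ovaries, while Gm12671 was at 448, 298 and 331 TPM in Sema3E ovaries against 929.5, 811 and 196 TPM in IgG ovaries. These 2 copies were chosen after their values were seen. Eno1 held 73.3% to 76.5% of the TPM summed with its 3 copies, and for the other 7 members the share was 89.5% or more. Counts of called members were the same with copies summed, in every comparison.

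**Figure D5:**
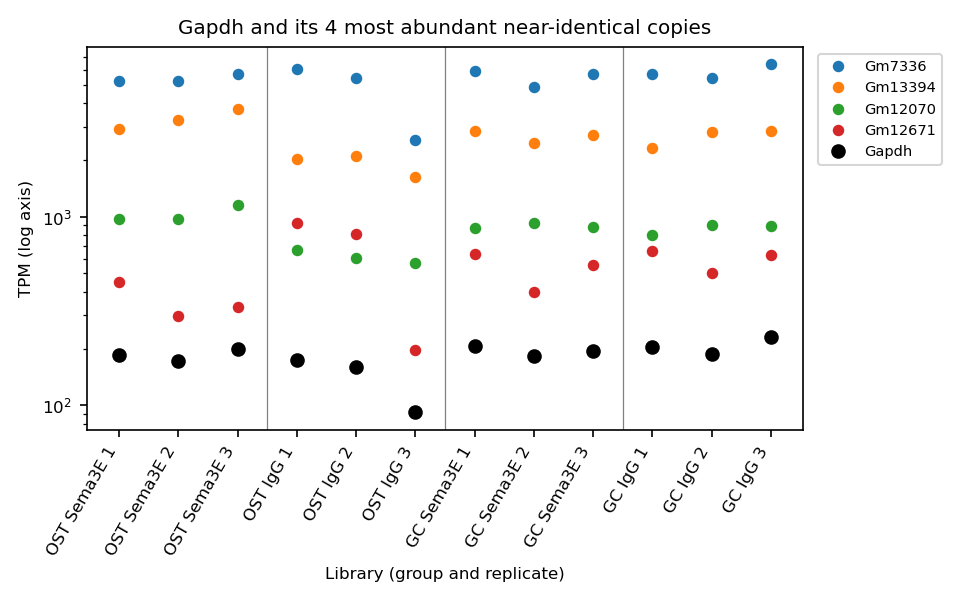
TPM (log axis) of the Gapdh row and its 4 most abundant near-identical copies in each library. The Gapdh row, in black, is below all 4 copies in every library, and Gm13394 and Gm12671 differ in opposite directions between the OST groups, apart from OST IgG replicate 3.

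Other genes of the same pathways were counted from lists written with earlier results known. Of 22 tested other genes induced by hypoxia, 0 were called between Sema3E and IgG in either tissue by limma. At an unadjusted p under 0.05, 2 were lower in OST (Kdm3a and Mxi1, against 14.9% of all genes). In GCs 1 was lower (Car12, against 5.11% of all genes). Between OST and GCs, 6 were called higher and 7 lower in Sema3E ovaries, where 45.2% of all genes were called, and 3 higher in IgG ovaries, where 8.64% were. These shares of all genes stand beside the counts of the next 2 lists as well. Stc1, which encodes the secreted hormone stanniocalcin, was called higher in OST in both, by 4.02 (SE 0.21, adjusted p = 3.54e-05) in Sema3E ovaries and 4.43 (SE 0.31, adjusted p = 0.000925) in IgG ovaries. Among other HIF pathway regulators (15 tested in OST, 14 in GCs), 0 were called between treatments. At an unadjusted p under 0.05, 5 were lower in OST, against the same 14.9% of all genes. They included the coactivators Ep300 (−0.48, SE 0.16) and Crebbp (−0.35, SE 0.12). In GCs 1 had an unadjusted p under 0.05, against the same 5.11%. It was Arnt2, which was higher (0.57, SE 0.23, adjusted p = 0.966 from limma). In Sema3E ovaries 5 of the 15 were called higher and 3 lower in OST than in GCs, and in IgG ovaries 1 was called, Fh1, the fumarase of the citric acid cycle (0.999, SE 0.18, adjusted p = 0.0221). Of the other glycolytic isoenzymes and transporters, the insulin-responsive glucose transporter Slc2a4 was called higher in OST in both treatments, by 1.31 (SE 0.11, adjusted p = 0.000168) in Sema3E ovaries and 1.67 (SE 0.19, adjusted p = 0.00467) in IgG ovaries. Counts for this list were 4 higher and 2 lower of 12 tested in Sema3E ovaries and 3 higher of 13 tested in IgG ovaries. For these 3 lists the OST against GC values are given on the deposited TPM only.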

How the data were processed

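The authors deposited 1 table of TPM for 12 libraries, for which GRCm38 served as the genome, HISAT2 (version 2.0.5) as the aligner and featureCounts (version 1.5.0-p3) as the counter. Per the labels, edgeR (version 1.3.3) was among the authors' tools, as listed in the submitters' processing notes. The deposited coordinates are not those of GRCm38, so genes were placed by identifier in GENCODE M21. Of 33 rows with a member's name, the second Aldoa row (0.165 to 1.56 TPM) was left out. Differences were tested with limma (version 3.58.1, R 4.3.3) on log2(TPM + 1), with trend and robust estimation, on the 6 libraries compared (12 for the tissue difference in the effect), over genes above 1 TPM in at least 1 of them, and p-values were adjusted over all of these by the Benjamini-Hochberg method. The log scale understates changes of low genes. The procedure was tested on simulated data. There 100 genes were changed by each size, all with a mean log2(TPM + 1) above 2. The shares below therefore do not cover lower members such as Ankrd37 and Slc2a3. Noise was drawn independently for each gene, so genes that move together in 1 library were not simulated. Of genes changed by a log2 of 1 it called 43% between treatments in OST and 73% in GCs. Between OST and GCs it called 34% in IgG ovaries and 85% in Sema3E ovaries. For a log2 of 2 these shares were 78%, 90%, 76% and 95%. Changes of a log2 of 1 could thus be missed. Copies of the members were found with blastn (version 2.17.0). All 32 members are named; full statistics go to those that passed in a comparison, at most 8 by p, or the 4 with the smallest p, and other lists give at most 3 genes. The members and lists were chosen with earlier results of these data known. Motifs were counted in promoter windows of RefSeq. Alternatives were the pseudocount, no filter, 2 scalings, other gene sets, the study's cutoffs, a replicate block and left-out libraries. Tables and plots used Python 3.11.15, pandas 2.3.3, numpy 2.4.6 and matplotlib 3.10.9.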

Additional observations from a re-analysis of the deposited data

How the results depend on the processing

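Under every alternative run, 0 members were called between Sema3E and IgG in OST, in GCs or in the difference between them. In IgG ovaries 3 members were called between OST and GCs (8.64% of all genes). They became 1 with no filter on low TPM and 11 in a fit over all 12 libraries. Under the study's cutoffs (unadjusted p under 0.05 and a fold over 2) there were 5. Here these cutoffs were applied to the limma fit, with the fold on the log2(TPM + 1) scale. The study applied them with DESeq2, so all counts under its cutoffs are not those of its own procedure. Without GC IgG replicate 1 and OST IgG replicate 3 there were 9 (20.3% of all genes). With each library left out in turn the count ran from 0 to 5 (3.03% to 12.1% of all genes). In Sema3E ovaries the 10 (45.2% of all genes) became 16 under median-ratio scaling (52.5%) and 19 without globin and mitochondrial genes (54.7%). Under the study's cutoffs 3 were called, and 7 of the 10 missed the fold on the log2(TPM + 1) scale. Car9 was among these 7, although its mean TPM in OST was 2.45 times that in GCs. The count ran from 7 to 12 with each library left out (33.1% to 43.5% of all genes). Except where the study's cutoffs, fewer libraries or fewer genes are themselves the change, the cause was not tested. Ndrg1 in Sema3E ovaries was not called in 4 of the 6 fits without a library (adjusted p-values of 0.0712 to 0.0843 from limma), nor with no filter (0.0517). No named member changed its direction in any of these fits in the comparisons for which its full statistics are given. The replicate block, with the replicate number as a term, called 12 members in Sema3E ovaries and 2 in IgG ovaries, and 0 between treatments. No share of all genes is given here for OST against GCs with no filter, over 12 libraries, under the study's cutoffs or with the block. The member counts of these 4 settings are therefore not set against all genes. Over all genes, the 10 called between treatments in GCs became 245 with the block, 84 under the study's cutoffs and 0 in the fit over 12 libraries, and the 0 called in OST became 154 under the study's cutoffs and 11 without OST IgG replicate 3. Same-numbered libraries did not deviate together throughout (correlations of −0.17 to 0.33). With 3 libraries a group, this cannot show whether equal numbers mark the same mouse or ovary. No label or method links them, so the numbers were not taken as pairs. The p-values of the main fits therefore leave out any sharing of a mouse between ovaries, or of an ovary between GCs and OST. Depth is unknown for TPM, which limits what can be said of members under 2 TPM, Ankrd37 and Slc2a3.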

Other observations

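Genes that lead pyruvate into mitochondria were counted next to the glycolysis genes. Of 13 tested, limma called 6 higher and 1 lower in OST than in GCs of Sema3E ovaries, against 45.2% of all genes, and 2 higher in IgG ovaries, against 8.64%. Pdha1, a subunit of pyruvate dehydrogenase, was higher in OST by a log2 of 0.998 (SE 0.11, adjusted p = 0.000624) in Sema3E ovaries and 0.94 (SE 0.19, adjusted p = 0.0305) in IgG ovaries. Pdp1, a phosphatase that switches the enzyme on, was higher by 0.77 (SE 0.08, adjusted p = 0.000571) and 1.20 (SE 0.20, adjusted p = 0.0155). Mpc1, of the mitochondrial pyruvate carrier, was higher by 0.86 (SE 0.09, adjusted p = 0.000574) in Sema3E ovaries and was at 0.53 (SE 0.14, adjusted p = 0.0646) in IgG ovaries. Between Sema3E and IgG, 0 of 13 were called in either tissue. Of the gluconeogenesis genes, Pcx, Pck1 and G6pc3 were called higher in OST of Sema3E ovaries, by 1.302, 0.61 and 0.39. These were 3 of 6 tested, against the same 45.2% of all genes. In IgG ovaries 0 of 6 were called (8.64% of all genes), and 3 had an unadjusted p under 0.05 (29.7% of all genes). These OST against GC values are on the deposited TPM, and none is given here under the 2 other scalings. Without globin and mitochondrial genes the median of all genes in Sema3E ovaries moved from 0.05 to −0.19, so the smaller of these differences depend on the scaling.

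Among lactate dehydrogenase transcripts, Ldhb, the subunit that favours pyruvate, held 58.0% of the summed Ldha and Ldhb TPM in OST IgG replicate 3. It held 18.3% to 26.6% in OST of Sema3E ovaries and 28.1% and 29.6% in the other OST libraries of IgG ovaries. In GCs it held 16.3% to 22.1% in Sema3E ovaries and 12.2% to 20.4% in IgG ovaries. This share was looked at after its values were seen.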
